A study of Mus musculus with 20 samples.

Results

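The central *Mup* genes are 10 near-identical protein-coding genes of mouse chromosome 4, *Mup1*, *Mup2*, *Mup7*, *Mup9*, *Mup10*, *Mup11*, *Mup12*, *Mup13*, *Mup14* and *Mup15*. They were chosen by symbol, and all 10 have a row in the table of FPKM values (sequenced fragments scaled to exon length and to library size), which lists 36128 genes, and in both tables of read counts. Liver polyA RNA of 20 mice was sequenced, with 1 library for each mouse and 5 mice in each of 4 groups: B6 (C57BL/6J) males, B6 females, CAST (CAST/EiJ) males and CAST females, all aged 8 weeks. B6 is a classical inbred laboratory strain and CAST an inbred strain derived from wild mice, and no group received a treatment. For the strain, the library titles were followed. In 10 libraries (the B6 females and the CAST males) another entry of the description contradicts the title. B6 reads had been mapped to the mm9 genome and CAST reads to mm9 altered with the variants of CAST, so for copies this alike a difference between strains and one between the genomes used for mapping cannot be told apart.

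Major urinary proteins are small lipocalins, secreted by hepatocytes into the blood and passed into the urine, where they bind and slowly release volatile pheromones. Their genes form a cluster in which the central copies arose by recent duplication. In mouse liver many of them respond to growth hormone, whose pulses differ between males and females and act through the transcription factor STAT5. In these whole-liver samples, fewer cells of a type and less RNA per cell cannot be told apart.

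The coding sequences set the limit on what a read can say about a single copy, and the stretch that differs most is shown for that reason. Over 543 aligned coding bases of mm9, the 45 pairs of members differed by 1 to 9 bases (98.3 to 99.8% identity, median 99.3%), at 15 variable positions in all, and *Mup11* alone had 3 bases more. The stretch with most variable positions was that of coding positions 1 to 50, with 5 of them and 6 different sequences, in which capitals mark a base that differs from the commonest.
*Mup2*, *Mup9* and *Mup11*: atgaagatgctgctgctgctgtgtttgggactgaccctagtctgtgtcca
*Mup1*: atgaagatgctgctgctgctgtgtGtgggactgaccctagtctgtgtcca
*Mup7* and *Mup14*: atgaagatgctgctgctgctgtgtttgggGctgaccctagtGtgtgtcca
*Mup10*: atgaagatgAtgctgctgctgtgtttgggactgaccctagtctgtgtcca
*Mup12*: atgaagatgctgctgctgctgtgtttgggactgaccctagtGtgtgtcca
*Mup13* and *Mup15*: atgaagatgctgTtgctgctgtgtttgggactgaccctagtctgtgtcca
Coding positions 290 to 339 were the same in all 10 members.
All members: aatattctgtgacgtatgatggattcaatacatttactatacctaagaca

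**Figure D1:**
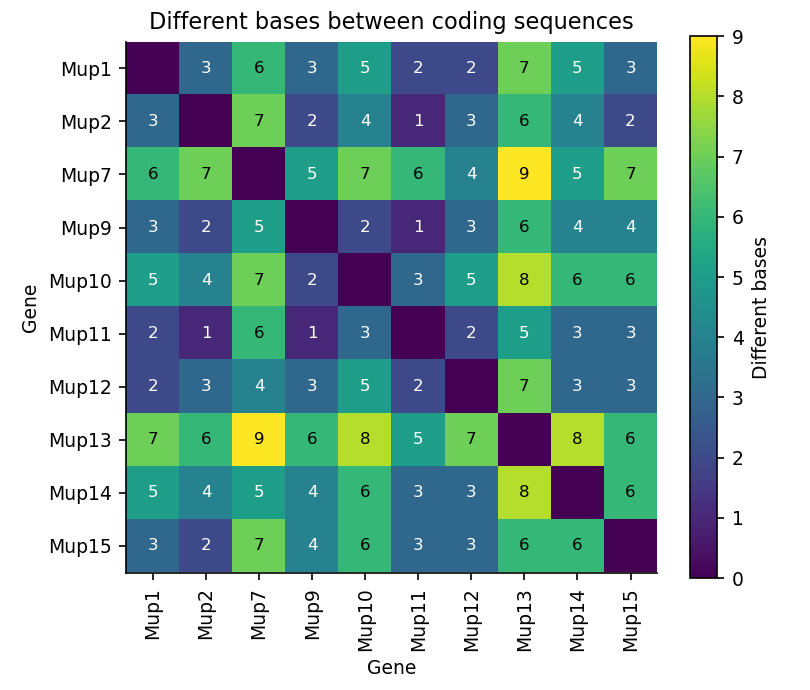
Number of different bases between the coding sequences of each pair of members in mm9, over 543 aligned bases, with the members on both axes. All pairs lie between 1 and 9 differences, and *Mup7* and *Mup13* are the pair with 9.

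The reads were 50 bases long, so each member's transcript was cut into every window of 50 bases. The windows were searched for in the protein-coding transcripts of the other genes of mm9. The share of windows found in no other gene was 19.5% for *Mup10*, 14.6% for *Mup12*, 11% for *Mup11*, 7.85% for *Mup9*, 6.39% for *Mup13*, 5.69% for *Mup7*, 5.24% for *Mup1* and 2.4% for *Mup14*. For *Mup2* and *Mup15* it was 0%. The median window of a member was shared by 11 to 12 genes. Over 1127 ordinary genes searched the same way the median share was 100%. Windows inside 1 exon were also searched for on chromosome 4, and other chromosomes were not searched. The share found at 1 place there was 25.2% for *Mup10*, 21.8% for *Mup12*, 16.4% for *Mup11*, 12.2% for *Mup9* and 7.84% for *Mup1*. It was 5.45% for *Mup7*, 3.76% for *Mup13*, 1.88% for *Mup14* and 0% for *Mup2* and *Mup15*. Only uniquely mapped reads had been counted. The windows stand for single reads, and pairs of reads, which were sequenced here, were not searched. Reads were also counted on *Mup2* and *Mup15* (44 to 1916 and 5 to 6153 in the 20 livers), so values of single copies are given as uncertain.

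In mm9, with the gencode annotation, all 10 genes lie on the minus strand of chromosome 4 and have 7 exons. *Mup7* is at chr4:60079341-60083347, *Mup9* at chr4:60430918-60434824, *Mup1* at chr4:60510884-60514832, *Mup10* at chr4:60591132-60595071 and *Mup11* at chr4:60671338-60675283. *Mup12* is at chr4:60732255-60736198, *Mup13* at chr4:60885339-60889318 and *Mup14* at chr4:60961055-60965051. The record of *Mup2* (chr4:60080259-60167161) overlaps part of *Mup7*, and that of *Mup15* (chr4:60961073-61100775) part of *Mup14*. All lie on the same strand. The authors counted reads on another annotation, of RefSeq and noncoding genes. Whether these overlaps, or the transcripts searched above, hold for the counted genes was not tested.

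The liver libraries held 7969482 to 35328573 counted reads. The members took 0.083 to 0.288% of them in B6 males, 0.0141 to 0.0467% in B6 females, 0.126 to 0.236% in CAST males and 0.00883 to 0.0321% in CAST females. All 8 hepatocyte markers were present, with a summed FPKM of 17171 to 30202, while 5 pancreas acinar markers summed to at most 0.923.

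Summed over the 10 members, livers of both strains held more of these transcripts in males than in females, without overlap in CPM (counts scaled to the library total) or in FPKM. The summed CPM was 2875, 830, 2291, 2745 and 2733 in the 5 B6 males, and 144, 141, 242, 467 and 174 in the B6 females. In CAST it was 2062, 1775, 2363, 1256 and 1510 in males, and 189, 151, 321, 88.3 and 204 in females. B6 male 2 was the lowest of the males and still above every female of either strain. The means were 2295 ± 848 (SD, n = 5) and 234 ± 136 CPM in B6 males and females, a ratio of 9.83, and 1793 ± 438 and 191 ± 85.4 CPM in CAST, a ratio of 9.41. The log2 fold change of the summed counts, male over female, was 3.30 (SE 0.34) in B6 and 3.14 (SE 0.25) in CAST in the edgeR fit, and no p is given for a sum over chosen genes. Without *Mup7* these values were 1.33 in B6 and 2.94 in CAST.

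In FPKM the sum was 1120, 673, 789, 1401 and 1274 in B6 males and 269, 209, 197, 246 and 241 in B6 females. It was 1121, 584, 892, 825 and 730 in CAST males and 77.8, 62, 132, 36.9 and 80.9 in CAST females. The male mean was 4.52 times the female mean in B6 and 10.7 times in CAST. Thus the ratio in B6 was less than that from counts (9.83), whereas CAST gave similar ratios from both tables.

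Between strains the summed level did not separate in males, with 1.28 times as much in B6 by CPM and 1.27 times by FPKM and overlapping ranges in both. In females the tables differed. By CPM the B6 mean was 1.23 times that of CAST, with overlap, and by FPKM it was 2.99 times, with every B6 female above every CAST female. The log2 fold change of the summed counts, B6 over CAST, was 0.36 (SE 0.31) in males and 0.20 (SE 0.32) in females, and the sex differences of the strains differed by 0.16 (SE 0.44). The value in males turned to -1.32 without *Mup7* and was 1.03 with all *Mup* rows summed. That in females turned to -0.21 without B6 female 4.

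**Figure D2:**
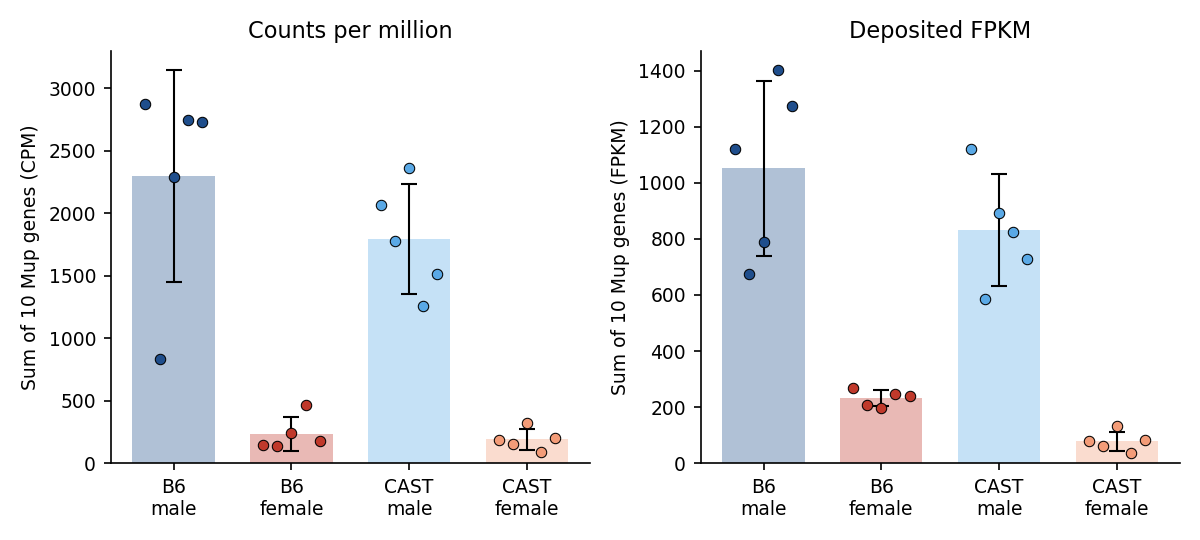
Summed level of the 10 members in each liver (points) with the group mean as a bar from 0 and the SD as a line, in CPM and in FPKM, for the 4 groups of 5 mice. Males lie above females in both strains, and in FPKM the B6 females (197 to 269) lie above the CAST females (36.9 to 132).

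The copy with the highest level was *Mup7* in B6 males, *Mup10* in B6 females and *Mup11* in both sexes of CAST. Levels of different genes are compared in FPKM, which is scaled to length. *Mup7* made up 69.3% ± 12.3 (SD, n = 5; 52.6 to 84.4%) of the summed FPKM in B6 males. *Mup10* made up 88.8% ± 4.11 (84.3 to 93.4%) in B6 females. *Mup11* made up 62% ± 16.8 (35.1 to 77.3%) in CAST males and 61.7% ± 3.92 (55.9 to 66.9%) in CAST females. The same 3 genes led the summed counts, with 75.3% for *Mup7* in B6 males, 56.9% ± 21.3 (29.3 to 85%) for *Mup10* in B6 females and 56% and 54.1% for *Mup11* in CAST males and females.

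**Figure D3:**
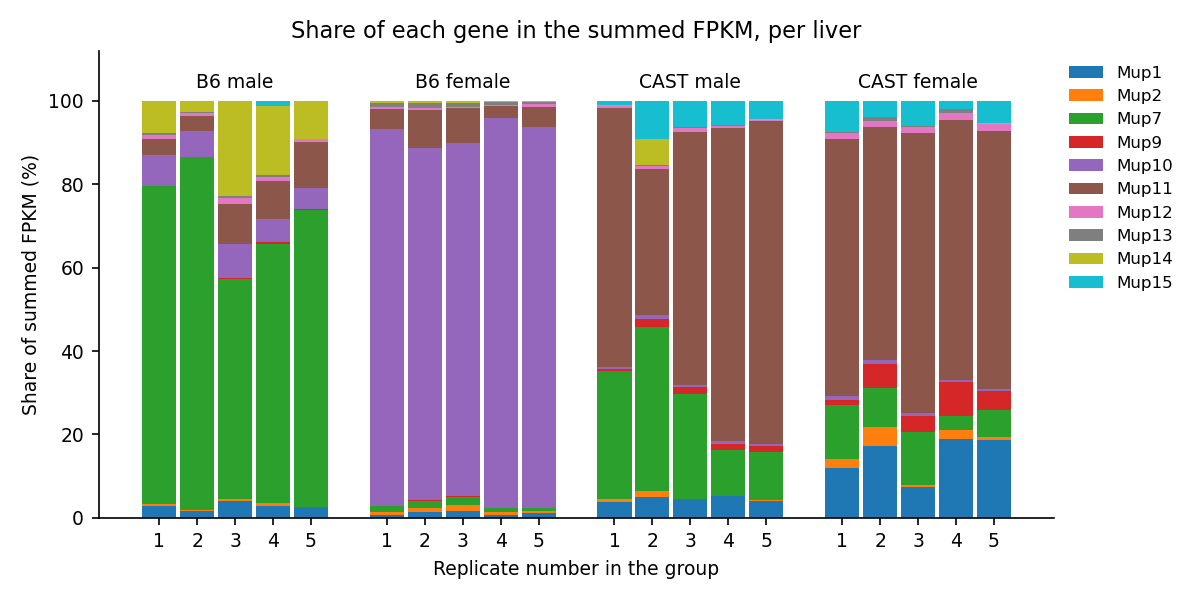
Share of the summed FPKM that each of the 10 members made up, in percent, as stacked bars from 0 for each of the 20 livers. *Mup7* fills 52.6 to 84.4% of the bars of B6 males, *Mup10* 84.3 to 93.4% of those of B6 females, and *Mup11* 35.1 to 77.3% of those of CAST males.

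The order of mean FPKM was checked between neighbours by whether their 5 values overlapped. In B6 males *Mup7* (723) stood above *Mup14* (126), *Mup11* (82.5) and *Mup10* (65.7), which overlapped in that order. *Mup10* lay above *Mup1* (28.9) without overlap. *Mup12*, *Mup2*, *Mup15*, *Mup13* and *Mup9* followed with means of 9.72 to 2.72 and overlapped. In B6 females *Mup10* (207) stood above *Mup11* (13.4), which stood above *Mup7* (3.14), and the other 7 had means of 2.36 or less and overlapped. In CAST males *Mup11* (525) and *Mup7* (194) overlapped and stood above *Mup15* (40.3) and *Mup1* (37), which overlapped, and the other 6 had means of 10.4 or less. In CAST females *Mup11* (48.7) stood above *Mup1* (10.4), *Mup7* (7.81) and *Mup15* (4.22), which overlapped as neighbours, and the other 6 had means of 3.22 or less.

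By the thresholds of the study (fold change above 2 and adjusted p under 0.05), 8 of the 10 members were higher in B6 males and none in B6 females, whereas of all genes tested 1.16% were called higher in B6 males and 1.24% in B6 females. In CAST, 8 of 10 were higher in males and none in females, beside 0.882% and 1.17% of all genes. The median log2 fold change of the members, male over female, was 2.21 in B6 and 2.29 in CAST, and that of all genes 0.02 and -0.01. The members not called were *Mup9* and *Mup10* in B6 and *Mup2* and *Mup13* in CAST. In edgeR no member was higher in females at an unadjusted p under 0.05 in either strain, and DESeq2 called none, whereas limma on log2(FPKM + 0.1) called *Mup10* higher in B6 females. The tests set each difference between groups against the spread between libraries of 1 mouse each. How much of that spread comes from the assignment of reads was not tested.

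**Figure D4:**
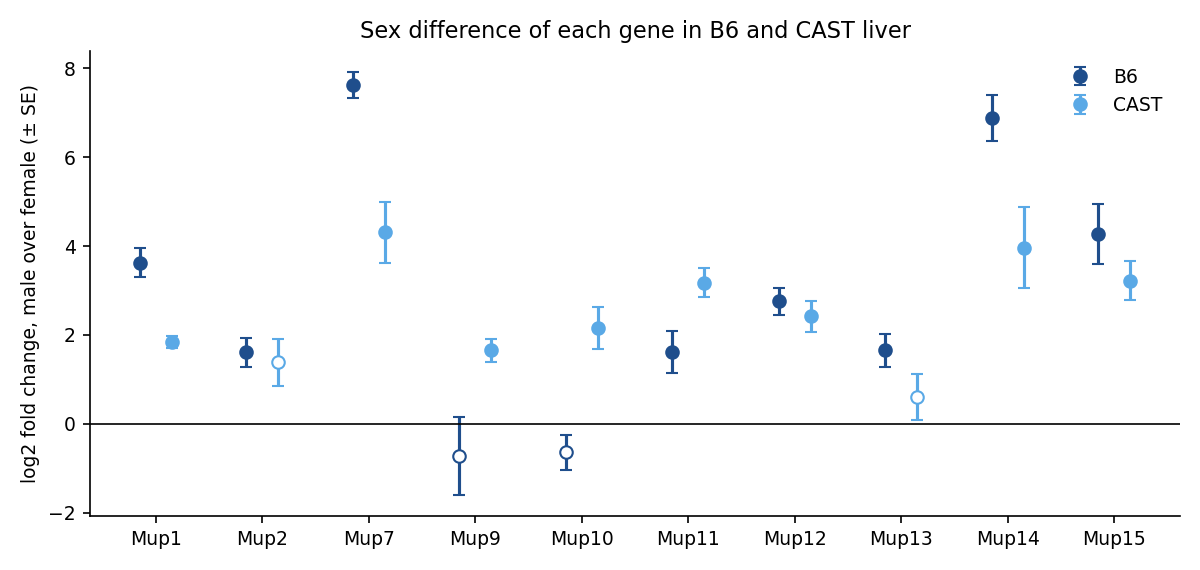
Log2 fold change, male over female, of each member in B6 (dark) and in CAST (light), from edgeR, with the SE as bars and filled points for members called. *Mup9* (-0.72) and *Mup10* (-0.64) in B6 are the members below 0.

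*Mup7* carried most of the sum in B6 males and varied widely between tables in CAST males. Its CPM was 2241, 629, 1706, 1843 and 2221 in B6 males and 9.28, 8.92, 9.17, 7.01 and 9.21 in B6 females. In CAST it was 241, 800, 645, 194 and 13.2 in males and 20.8, 12.3, 37.1, 4.58 and 13 in females. The sexes were far apart in B6, while CAST male 5, with 110 reads, lay within the range of the CAST females. That liver had an FPKM of 84.4, which was the lowest of the CAST males (the highest was 344) but above every CAST female (1.22 to 16.6). *Mup7* was higher in males of both strains (edgeR, adjusted p = 4.05e-12 in B6 and 0.000468 in CAST), and its log2 fold change was larger in B6 by 3.31 (SE 0.81, adjusted p = 0.0263). Without any of 4 livers in turn (B6 female 3, CAST males 1 and 4 and CAST female 3), this difference was 2.82 to 3.32 with an adjusted p of 0.051 to 0.0591.

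*Mup10* had in B6 the opposite order of the sexes, in FPKM. Its FPKM was 82, 41.4, 63.7, 77.9 and 63.3 in B6 males, and 243, 176, 167, 230 and 220 in B6 females. The ranges did not overlap, and the female mean (207 ± 33.7) was 3.16 times the male mean (65.7 ± 15.9). It was the single member higher in B6 females without overlap in FPKM, beside 3.24% of all genes. By limma on log2(FPKM + 0.1) the log2 fold change, male over female, was -1.68 (adjusted p = 0.000313).

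The counts of *Mup10* did not separate the sexes of B6. Its CPM was 145, 44.9, 93, 97.6 and 88 in males, and 80.5, 64.7, 70.9, 397 and 119 in females. The ranges overlapped, and B6 female 4, with 5262 reads, was above all other livers. The log2 fold change from counts was -0.64 (SE 0.40, adjusted p = 0.383), and 0.15 without that liver. The ratio of CPM to FPKM of this gene was 1.08 to 1.77 in the 5 B6 males and 1.72 in B6 female 4, but 0.331, 0.367, 0.424 and 0.543 in the other 4 B6 females. Which of the tables gives the level of *Mup10* was not tested.

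In CAST *Mup10* was low. Its FPKM was 5.05, 5.64, 5.76, 5.98 and 4.05 in males and 0.783, 0.483, 1.1, 0.17 and 0.465 in females, so that males were above females in every liver. The counts behind them were 57 to 360 reads in males and 3 to 73 in females. By counts it was higher in CAST males (log2 fold change 2.16, SE 0.48, adjusted p = 0.00831), whereas DESeq2 gave 2.01 with an adjusted p of 0.0537. The sex difference of *Mup10* differed between the strains by -2.85 (SE 0.72, adjusted p = 0.0309), that is towards females in B6, and DESeq2 gave -2.69 with an adjusted p of 0.05, which does not pass. The adjusted p of this difference rose to between 0.0514 and 0.0766 without 7 of the 20 livers, each left out alone (B6 male 5, B6 female 4, CAST males 2 and 4 and CAST females 1, 2 and 4), with values of -2.06 to -2.84.

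The bases before the start of *Mup7* and *Mup10* are given because these copies led the 2 sexes of B6. Each line is the 250 bases upstream of the start of the gene's first listed isoform in mm9, which for *Mup7* lies inside the gene record, on the minus strand, at chr4:60083284-60083533 for *Mup7* and chr4:60595072-60595321 for *Mup10*, and capitals mark the bases that differ between them in the alignment of the pair (93.8% identity).
*Mup7*: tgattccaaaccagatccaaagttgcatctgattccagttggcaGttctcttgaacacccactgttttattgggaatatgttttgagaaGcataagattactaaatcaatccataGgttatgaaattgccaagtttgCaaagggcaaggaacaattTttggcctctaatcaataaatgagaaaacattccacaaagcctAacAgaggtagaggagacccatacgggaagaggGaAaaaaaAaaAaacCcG
*Mup10*: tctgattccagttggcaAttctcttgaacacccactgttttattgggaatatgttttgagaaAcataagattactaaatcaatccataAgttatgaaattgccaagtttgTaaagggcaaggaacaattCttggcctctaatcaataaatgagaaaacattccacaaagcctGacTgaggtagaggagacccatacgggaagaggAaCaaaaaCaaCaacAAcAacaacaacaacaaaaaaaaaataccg
The starts of these isoforms are not at the same base of the alignment, which shifts one line against the other. Over all 45 pairs of members the identity upstream was 85.9 to 98.4% (median 95%). The letters TTCNNNGAA, the core that STAT5 binds and the same on both strands, occurred in none (0) of the 10 members' 250 bases, and in 7.18% of 27025 RefSeq promoters of the same length (GRCm38.p6).

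*Mup11* led in CAST. Its FPKM was 697, 205, 540, 619 and 564 in CAST males and 47.8, 34.7, 88.1, 23 and 50.1 in CAST females. In B6 it was 44.5, 25.6, 75.7, 126 and 141 in males and 13, 19.1, 16.8, 7.04 and 11.2 in females. Males exceeded females in both strains without overlap, and CAST exceeded B6 in both sexes without overlap. By counts *Mup11* was higher in males of CAST (log2 fold change 3.17, SE 0.32, adjusted p = 2.11e-06) and of B6 (1.62, SE 0.47, adjusted p = 0.0417). The B6 call was lost by DESeq2 (adjusted p = 0.0769) and with edgeR's filterByExpr (adjusted p = 0.0679). It was also lost without 7 of the 10 livers, each left out alone (B6 males 3, 4 and 5 and B6 females 1, 2, 4 and 5), at values of 1.24 to 1.64 and an adjusted p of up to 0.108, and B6 female 3 (126 CPM, against 12.1 to 37.2 in the other females) lay within the range of B6 males (55.9 to 266).

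*Mup1* was higher in males of both strains, and higher in CAST than in B6 females. Its FPKM was 32.4, 10.4, 31.4, 38.7 and 31.6 in B6 males and 1.59, 2.75, 3.06, 1.51 and 2.9 in B6 females. It was 43.3, 29.6, 39.6, 42.4 and 30.2 in CAST males and 9.36, 10.7, 9.87, 6.98 and 15.1 in CAST females. The males of the strains overlapped, and the females did not. Its log2 fold change by counts, male over female, was 3.63 (SE 0.33, adjusted p = 7.53e-07) in B6 and 1.84 (SE 0.14, adjusted p = 4.91e-08) in CAST. The difference between these, 1.80 (SE 0.38), had an adjusted p of 0.00880, and 0.0847 (1.31) by limma on log2(FPKM + 1).

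*Mup14* differed most between tables. In B6 its FPKM was 86.6, 17.1, 180, 230 and 115 in males and 1.45, 0.939, 0.872, 0.376 and 0.52 in females, without overlap. In CAST males it was 0.671, 37.5, 0.689, 0.348 and 0.883, whereas the CPM of the same livers was 1.63, 82.7, 104, 50.7 and 1.44. CAST males 3 and 4 were thus high by counts and low by FPKM. In CAST females the FPKM was 0.0323 to 0.118 and the CPM 0.0705 to 9.71, so by CPM the sexes overlapped. By counts *Mup14* was higher in males of B6 (log2 fold change 6.87, SE 0.52, adjusted p = 6.30e-08) and of CAST (3.96, SE 0.91, adjusted p = 0.0112), the second with an adjusted p of 0.113 by limma on log2(FPKM + 0.1).

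*Mup15* was higher in CAST than in B6 by counts, in both sexes. Its FPKM was 12.4, 52.9, 55.8, 48.4 and 32 in CAST males and 5.75, 2.36, 7.89, 0.69 and 4.4 in CAST females. In B6 males it was 1.21, 0.176, 0.452, 19 and 0.505, and all B6 females were at 0.217 or less. B6 male 4 was above the other B6 males and reached into the range of CAST males. By counts *Mup15* was higher in males of B6 (log2 fold change 4.27, SE 0.67, adjusted p = 0.000487) and of CAST (3.22, SE 0.44, adjusted p = 7.52e-05). By limma on log2(FPKM + 0.1) the B6 value was 2.32 (adjusted p = 0.198).

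*Mup9* gave a sex difference in B6 whose direction depended on 1 liver. Its counts were 61, 41, 79, 107 and 52 reads in B6 males and 2, 11, 8, 374 and 4 in B6 females. B6 female 4 alone was above the males, and it is the liver that was also highest for *Mup10*. The log2 fold change was -0.72 (SE 0.87, adjusted p = 0.695) with that liver. Without it *Mup9* was called higher in B6 males (2.94, adjusted p = 0.000824), as it was with all livers by limma on log2(FPKM + 0.1) (2.59, adjusted p = 0.0161). The FPKM of B6 female 4 was 0.395, close to the other B6 females (0.101 to 0.374) and under the males (0.677 to 7.45). In CAST, where counts were 83 to 262 reads in males and 27 to 90 in females, *Mup9* was higher in males (1.65, SE 0.26, adjusted p = 0.000336).

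*Mup12*, *Mup2* and *Mup13* had group means under 10 FPKM. *Mup12* had a mean FPKM of 9.72 ± 4.16 and 1.1 ± 0.483 in B6 males and females and 5.56 ± 2.95 and 1.24 ± 0.561 in CAST, and was higher in males of B6 (log2 fold change 2.76, SE 0.30, adjusted p = 8.06e-06) and of CAST (2.42, SE 0.35, adjusted p = 0.000146). Its sexes did not overlap in either strain. *Mup2* had 5.07 ± 2.96 and 2 ± 0.721 FPKM in B6 males and females and 3.61 ± 3.52 and 1.3 ± 0.941 in CAST, and overlapped between the sexes of both strains. *Mup13* had 3.92 ± 1.59 and 1.97 ± 0.397 in B6 and 0.917 ± 0.386 and 0.272 ± 0.177 in CAST. By counts both were higher in B6 males (1.61 and 1.65, adjusted p = 0.00429 and 0.00947). By limma on log2(FPKM + 0.1) neither was called (adjusted p = 0.109 and 0.0522), while in CAST the same test called *Mup13* higher in males (1.48, adjusted p = 0.0454). Of the livers left out in turn in CAST, CAST female 2 brought both past the threshold (adjusted p = 0.0481 for *Mup2* and 0.0475 for *Mup13*).

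In FPKM, males were above females without overlap for 6 members in B6 (*Mup1*, *Mup7*, *Mup9*, *Mup11*, *Mup12* and *Mup14*), against 3.65% of all genes. In CAST this held for 8 members, all but *Mup2* and *Mup13*, against 3.61% of all genes, and none was higher in females, against 2.2%.

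Between the strains single copies differed in both directions. In males 4 members were called higher in B6 and 2 higher in CAST, against 13.4% and 10.4% of all genes. Those higher in B6 were *Mup10* (log2 fold change 3.45, SE 0.49, adjusted p = 1.38e-06), *Mup13* (2.80, SE 0.48), *Mup7* (2.19, SE 0.56) and *Mup14* (1.79, SE 0.71, adjusted p = 0.0478). The call of *Mup14* was lost by DESeq2 (1.85, adjusted p = 0.154) and with filterByExpr (1.78, adjusted p = 0.0537). It was also lost without 14 of the 20 livers, each left out alone, with values of 1.46 to 1.83 and an adjusted p of 0.0505 to 0.102. Only the libraries of B6 male 2, CAST males 2 and 3 and CAST females 1, 3 and 4 could be left out with the call kept. *Mup11* (-2.89, SE 0.47) and *Mup15* (-3.14, SE 0.55) were higher in CAST. In FPKM 3 members were higher in B6 males without overlap (*Mup7*, *Mup10* and *Mup13*) and *Mup11* alone in CAST males, against 13.9% and 12.5% of all genes.

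In females 2 members were called higher in B6 and 3 higher in CAST, against 13.9% and 10.4% of all genes. *Mup10* was the member with the largest strain difference, with a log2 fold change of 6.30 (SE 0.58, adjusted p = 4.10e-10) and a mean FPKM 346 times that of CAST females. *Mup13* was also higher in B6 (1.72, SE 0.51, adjusted p = 0.00799), or 1.29 with an adjusted p of 0.0527 without B6 female 1. *Mup1* (-2.40, SE 0.29), *Mup15* (-4.19, SE 0.74) and *Mup11* (-1.34, SE 0.46, adjusted p = 0.0203) were higher in CAST, *Mup11* with an adjusted p of 0.0547 to 0.09 without B6 female 1, 4 or 5 or CAST female 3. In FPKM 3 members were higher in B6 females without overlap (*Mup10*, *Mup13* and *Mup14*) and 4 in CAST females (*Mup1*, *Mup9*, *Mup11* and *Mup15*), against 14.1% and 12.4% of all genes. By mean CPM the order turned for *Mup9*, 1.94 times as high in B6, and *Mup14*, 2.05 times as high in CAST, both with overlap.

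The sex difference differed between the strains for 3 members, *Mup1*, *Mup7* and *Mup10*, at an adjusted p under 0.05 with no minimum fold, against 2.28% of all genes. *Mup1* and *Mup7* had more male bias in B6 and *Mup10* less. Without CAST male 4 *Mup1* alone remained called.

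Counts and FPKM of the same gene and liver kept no constant ratio for the members. Over 9481 genes outside the family with at least 20 reads in every liver, the ratio of CPM to FPKM strayed from the gene's own median by at most 1.03-fold in the median gene, and by more than 1.5-fold in any liver for 3 genes (0.0316%). Of the members, 4 had at least 20 reads in every liver (*Mup1*, *Mup2*, *Mup7* and *Mup11*), and all 4 had such a liver. The other 6 also had one among their livers with at least 20 reads. *Mup14* strayed by up to 68.6-fold (CAST male 3, with 1835 reads and an FPKM of 0.689) and *Mup9* by up to 38.3-fold (B6 female 4). *Mup15* strayed by up to 19.8-fold (B6 male 5, with 839 reads and an FPKM of 0.505), *Mup7* by up to 15.6-fold (CAST male 5) and *Mup10* by up to 9.9-fold (CAST female 5, with 73 reads and an FPKM of 0.465). *Mup1*, *Mup2* and *Mup12* stayed within 1.91-, 1.71- and 2.08-fold. For the sum the ratio was 0.536 to 3.04 (median 2.11), lowest in B6 female 1 and highest in CAST male 2. The median ratio was 7.44 for *Mup2* and 5.06 for *Mup15*, against 1.43 to 2.62 for the other members. The cause was not tested.

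**Figure D5:**
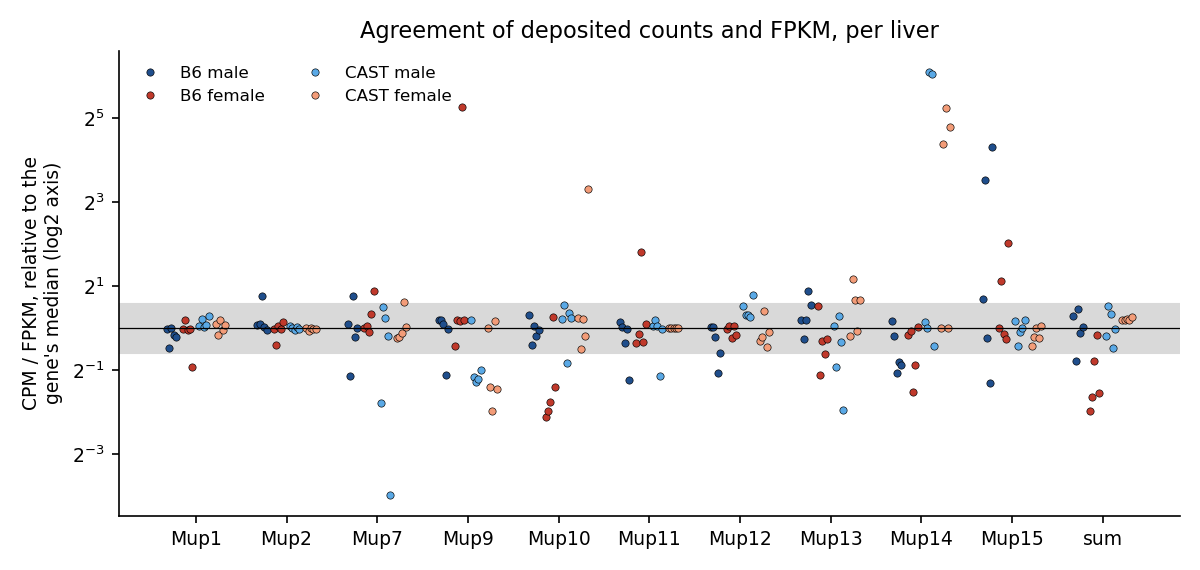
Ratio of CPM to FPKM of each member and of the sum in each of the 20 livers, coloured by group and divided by the gene's own median, on a log2 axis with the range within 1.5-fold shaded. In livers with at least 20 reads, values of *Mup14*, *Mup9* and *Mup15* reach 68.6-, 38.3- and 19.8-fold from 1, while *Mup1* and *Mup2* stay within 1.91- and 1.71-fold.

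The other *Mup* genes of the family were looked at next, and their likeness to the members was not computed. Of 10 tested, 6 were called higher in B6 males and 8 in CAST males, beside 1.16% and 0.882% of all genes. None was called higher in females, beside 1.24% of all genes in B6 and 1.17% in CAST. Between strains, 2 were higher in B6 and 4 in CAST males, and 3 in each strain in females, beside 13.4% and 10.4% of all genes in males and 13.9% and 10.4% in females. Their summed FPKM was 6756 ± 936 in B6 males and 1445 ± 107 in B6 females, and 2667 ± 448 and 697 ± 286 in CAST, so they exceeded the central members in each group. The 3 of highest mean were *Mup3* (1838 FPKM over all livers), *Mup20* (722), which encodes the male pheromone darcin, and *Mup16* (224). Between males of the strains they showed opposite orders, with *Mup20* at 2788 ± 953 FPKM in B6 and 31.4 ± 6.64 in CAST, and *Mup16* at 29.4 ± 15.8 in B6 and 711 ± 134 in CAST.

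Of 23 growth hormone and *Mup* regulators, 1 was called higher in B6 males and 2 in B6 females, and 1 in CAST males and 3 in CAST females, beside 1.16%, 1.24%, 0.882% and 1.17% of all genes. *Bcl6*, a repressor found more in male liver, had a log2 fold change of 1.83 in B6 and 1.51 in CAST, and *Cux2*, a female-specific liver factor, had -7.93 and -8.74. *Esr1*, an estrogen receptor, had -1.14 in B6, and *Socs2*, an inhibitor of growth hormone signalling, had -1.89 in CAST. *Stat5a*, a gene of the STAT5 pair, differed in its sex difference between strains by -0.70. *Socs2* was higher in B6 than CAST males (2.14), and *Cebpb*, a liver transcription factor, higher in CAST than B6 females (-1.02).

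Of 15 tested male-biased growth hormone targets, 15 were higher in B6 males and 13 in CAST males, beside 1.16% and 0.882% of all genes. The median log2 fold changes of these targets were 3.92 and 2.19, against 2.21 and 2.29 for the members. The sex difference differed between strains for 7 of the 15, all with more male bias in B6, against 2.28% of all genes. Among them were the fatty acid hydroxylases *Cyp4a12b* (8.02) and *Cyp4a12a* (6.46), which were higher in CAST than in B6 females (-9.17 and -7.55). Between strains, 3 of the 15 were higher in B6 and 5 in CAST males, and none in B6 and 6 in CAST females. Of all genes, 13.4% and 10.4% were called higher in B6 and in CAST males, and 13.9% and 10.4% in females. This list was drawn from genes known to be male-biased in liver, so its direction is not independent evidence.

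The genes outside the family whose FPKM followed the summed members most closely over the 20 livers, by the distance between Z-scored values among 9042 genes, were the glucuronosyltransferase *Ugt2b35* (1.83), *Nudt7* (1.91), the carboxylesterase *Ces3a* (1.97), *Hsd3b5* (2.06) and *Arl6ip1* (2.09). *Nudt7*, a coenzyme A diphosphatase of peroxisomes, had 117 ± 27.9 and 33.5 ± 5.5 FPKM in B6 males and females and 94 ± 19.8 and 22.2 ± 6.36 in CAST. *Hsd3b5*, a steroid dehydrogenase of male liver, had 91.4 ± 18.6 and 7.23 ± 3.75 in B6 and 42.3 ± 7.76 and 8.57 ± 7.36 in CAST. Among the members themselves *Mup12* (2.22), *Mup7* (2.3) and *Mup1* (2.39) were nearest to the sum of which they are part, and *Mup10* (6.71) was farthest.

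Of the markers of other liver cells, none of the 4 endothelial or 4 stellate ones was called between strains in either sex. Of 5 Kupffer cell markers, 5 were higher in B6 in each sex, beside 13.4% of all genes in males and 13.9% in females. The summed FPKM of these markers was 14.2 to 26.8 and 33.1 to 39.2 in B6 males and females and 4.86 to 12.6 and 7.79 to 25.9 in CAST. For sex, no hepatocyte, Kupffer, endothelial or stellate marker passed both thresholds in either strain, though some summed levels did not overlap. Several had an adjusted p under 0.05 by edgeR at less than 2-fold. In B6 all 5 Kupffer markers were lower in males (log2 fold change -0.69 to -0.97, adjusted p = 0.000225 to 0.00476). So were *Alb* (-0.62), *Stab2* (-0.54) and *Clec4g* (-0.49), whereas *Apoa1* was higher (0.51). In CAST *Alb* (-0.60) and *Cps1* (-0.55) were lower in males. The summed FPKM of the hepatocyte markers was 19654 to 20830 in B6 males and 24929 to 30202 in B6 females, and 17171 to 18772 and 20413 to 25904 in CAST. In B6 males and females that of the endothelial markers was 12.9 to 15.5 and 17 to 21.4, and that of the stellate markers 15.9 to 23.9 and 29.2 to 33.1. Of the 8 hepatocyte markers *Serpina1a* alone was higher in B6, in both sexes. Of 4 cholangiocyte markers *Sox9* alone was called for sex, higher in B6 males (1.11), and for strain *Krt7* was higher in B6 males (6.69) and females (6.92) and *Sox9* in B6 males (1.64), at a summed FPKM of 0.577 to 3.25 for the list. In the fits, no pancreas acinar marker was called. Some *Mup* genes are also active in glands, and 7 salivary, lacrimal and mammary gland markers summed to 40.3 to 98.6 FPKM. Of these, *Smr3a*, *Csn2*, *Csn3* and *Lpo* were at 0 in all 20 livers, 6 of the 7 were under 1 FPKM in every liver, and *Amy1*, an amylase also made in liver, had a log2 fold change, B6 over CAST, of -0.83 in males and -0.97 in females (edgeR, adjusted p = 5.19e-08 and 2.78e-09). The part of the other cell types in the results was not tested.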

How the data were processed

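Liver polyA RNA of 20 mice was sequenced by the authors with a directional kit. TopHat had been used to map the reads, with mm9 as the genome for B6 and a g2gtools version of mm9 carrying CAST variants for CAST. Uniquely mapped reads were then counted on exons by FeatureCounts. The deposited counts are raw reads for each gene and liver, in a table for each strain. The deposited FPKM values were scaled by the authors to exon length and library size. The count tables also hold the authors' own fold changes and p-values, which were not used, and 24 further columns (library-scaled counts and group medians) were not used either.

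CPM were computed from the counts and the total of each liver. edgeR 4.0.16 in R 4.3.3 was run on all genes with any read (TMM scaling, quasi-likelihood test, p-values adjusted by Benjamini-Hochberg). Sex was tested in each strain (25690 genes in B6, 24722 in CAST), and strain and the interaction in a fit of all 4 groups (25779 genes). That fit leaves out 2028 genes which have a row in 1 count table while their FPKM is above 0 in the other strain. Called genes changed by more than 2-fold at an adjusted p under 0.05, and for the interaction an adjusted p under 0.05 sufficed. The sum was a row of the same fits, outside the adjustment. Of 40 pairs of livers within groups, none agreed within sampling noise (chi-square per degree of freedom at least 8.08). The steps were tested on simulated data with 200 genes changed 4-fold in each fit. Of these, 195, 194 and 182 were recovered for sex in B6, sex in CAST and the interaction. Unchanged genes called were 7, 22 and 13.

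The members, gene lists and markers were chosen with earlier results of these data known. All members are named, with the 3 other *Mup* genes of highest FPKM, up to 3 of the called genes of largest change in each list, and the 5 genes with the most similar pattern. A row for 10 of 12 other *Mup* genes was found by symbol. Alternatives were another test (DESeq2 1.42.0, edgeR's exact test, limma 3.58.1 on log2 of FPKM with a pseudocount of 0.1 or 1), another scaling (DESeq2 size factors, library size), a filter (filterByExpr, a minimum FPKM of 0.1), a replicate block, the sum without *Mup7*, and each liver left out. Python 3.11.15 with pandas 2.3.3 was used for levels and sequences.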

Additional observations from a re-analysis of the deposited data

Results flagged for a closer look

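Each member and the sum, in CPM and in FPKM, gave 88 groups of 5 values. In 17 of them (19.3%), a liver's distance to the nearest other was more than 0.71 of the range of its group. That limit gives about 5% for independent values of a normal distribution. These values were not log-scaled and the groups share livers, so 5% is not their chance rate. B6 male 2 was low for the summed members (830 CPM) and for *Mup1* (19.7 CPM and 10.4 FPKM). B6 male 4 was high for *Mup9* (7.45 FPKM), *Mup13* (23.9 CPM) and *Mup15* (19 FPKM). B6 female 4 was high for *Mup9* (28.2 CPM) and *Mup10* (397 CPM) and low for *Mup7* (7.01 CPM). Other B6 females stood apart for *Mup13* (replicate 1, 6.59 CPM) and *Mup11* (replicate 3, 126 CPM), both high.

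In CAST, male 2 was high for *Mup14* (37.5 FPKM). The CAST females that stood apart were all high, namely female 2 for *Mup13* (2.48 CPM), female 3 for *Mup14* (9.71 CPM and 0.118 FPKM), female 4 for *Mup9* (6.35 CPM) and female 5 for *Mup10* (6.56 CPM). The same liver stood apart in both CPM and FPKM for *Mup1* in B6 males and *Mup14* in CAST females alone.

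The sex difference of B6 differed from that of CAST by a test of the interaction for *Mup1* (1.80 on the log2 scale), *Mup7* (3.31) and *Mup10* (-2.85), with larger male bias in B6 for the first pair and smaller for *Mup10*.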

How the results depend on the processing

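The log2 fold change of the sum, male over female, was 1.33 in B6 without *Mup7*, 2.20 with all *Mup* rows summed (chosen after seeing the data) and 2.18 in FPKM, against 3.30, and 2.12 in CAST with all *Mup* rows, against 3.14. B6 over CAST it was -1.32 in males without *Mup7* and 1.03 with all *Mup* rows, against 0.36, and 0.94 in females with all *Mup* rows and 1.58 in FPKM, against 0.20. With each liver left out the sums were 3.17 to 3.71 (B6 sex), 2.97 to 3.44 (CAST sex), 0.25 to 0.57 (males) and -0.21 to 0.48 (females). Members called ranged from 7 to 8, 8 to 10 and 5 to 7 for B6 sex, CAST sex and strain in males. They ranged from 3 (without B6 female 1) to 6 in females and from 1 (without CAST male 4) to 3 for the interaction.

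Same-numbered livers are different mice. The correlation of their deviations was above 0.1 in 1 of 5 pairs between the sexes of B6, 2 of 5 in CAST, 0 of 5 between strains in males and 1 of 5 in females, so the numbers were not taken as pairs. With a replicate block, 9, 9, 8, 5 and 3 members were called in the 5 comparisons, and the sums were 3.32, 3.23, 0.30 and 0.18. The block left the fits of sex with no bound on the prior degrees of freedom. Their p-values, and the counts of 9 and 9 that rest on them, are therefore not relied on. With the block and filterByExpr together, added after seeing the data, 7, 9, 7, 5 and 3 members were called, and *Mup11* in B6 had an adjusted p of 0.0607 by edgeR.

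Of 470 values of single members under other settings 25 changed sign, and of 800 with a liver left out 14 did. *Mup9* in B6 gave 2.59 (both limma fits with 0.1), 1.32 (FPKM + 1), 1.04 with the block and -1.04 to 2.94 with livers left out, and in females between strains -3.11, -1.66, -0.08 (-0.07 with filterByExpr) and -2.76 to 1.30. *Mup10* in B6 ranged from -0.87 to 0.15 with livers left out. *Mup12* between strains gave 0.80, 0.70, 0.01 by DESeq2 and by the block, and -0.18 to 0.34 with livers left out in males, and -0.55 to 0.21 in females. *Mup14* in females gave 2.49, 0.77 and -1.55 to 0.31. The interaction gave 0.83 and -2.79 to 1.31 for *Mup9*, -0.58 for *Mup13*, -1.10 and -1.85 for *Mup15*, -0.25 to 0.89 for *Mup2* and -0.25 to 0.69 for *Mup12*. The cause was not tested. Counts of 3 to 73 reads limit *Mup10* in CAST females.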
